A study of Mus musculus with 2 samples.

Results

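Cd4, Cd28, Cd22, Vwf and Kdr are 5 genes known mainly from lymphocytes and blood vessels that had measurable RNA in the nucleoplasm of mouse macrophages. They were chosen from their measured levels in these same libraries, so that their being detected is the reason for the choice and not a finding. They are 5 of 55536 annotated genes and hold 38 of the annotated transcripts, namely 3 of Cd28, 5 of Cd4, 11 of Vwf, 3 of Kdr and 16 of Cd22. The data are 2 libraries of 1 group, biological replicates 1 and 2, of macrophages grown from the bone marrow of C57BL/6J mice. The cells had 100 ng/ml Lipid A, the part of bacterial lipopolysaccharide that Toll-like receptor 4 recognises, for 12 h. They were then kept without it for 12 h and given 100 ng/ml again for 30 min, after which RNA of the nucleoplasm was freed of ribosomal RNA and sequenced. Library preparation began with 1 µg of RNA in replicate 1 and 500 ng in replicate 2. Both replicates carry the same donor identifier, and no label says that their cultures were separate, so the spread between them may be technical in part. There is no untreated group, so no effect of Lipid A can be read from these data.

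CD4 and CD28 are receptors of the T cell surface. CD4 binds MHC class II and brings the kinase LCK to the T cell receptor, and CD28 binds CD80 and CD86 on antigen-presenting cells and gives the T cell its second signal. CD22 is a sialic acid-binding lectin of B cells whose cytoplasmic tail recruits the phosphatase SHP-1 and damps B cell receptor signalling. KDR, also called VEGFR2, is the main signalling receptor for VEGF-A in endothelium, and VWF is a very large secreted glycoprotein of endothelium and megakaryocytes that tethers platelets and carries coagulation factor VIII. RNA in the nucleoplasm includes transcripts that are still being spliced or that are kept in the nucleus, so the transcript type behind each count matters here.

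The libraries held 23845991 gene counts in replicate 1 and 20675294 in replicate 2, and a count of 0 allows up to 0.126 and 0.145 CPM (counts scaled to a fixed library total) in them. Of 12 macrophage identity genes, 11 stood at 1 TPM (a level per unit of transcript length, scaled to the same total in each library) or more in both libraries, led by Lyz2 at 1023 and 1953, Ctss at 686 and 984 and Adgre1 at 416 and 641 TPM. The exception was Cd163, at 0.04 and 0.06 TPM. The mitochondrial share of counts was 2.91% in replicate 1 and 6.91% in replicate 2.

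The junctions below show where the transcripts of Cd28, Kdr, Vwf and Cd22 part, since the counts of each gene are divided among them. The sequences are on the transcribed strand and come from the GENCODE M21 transcripts on mm10. In each pair the letters in lower case are the same 30 bases of an exon, and the capitals mark what follows them in that transcript. For Cd28, on the plus strand, the shared bases are the end of exon 2 (chr1:60763306-60763335). They are followed by exon 3 in Cd28-201 (chr1:60765277-60765306) and by intron 2 in Cd28-203 (chr1:60763336-60763365).
Cd28-201: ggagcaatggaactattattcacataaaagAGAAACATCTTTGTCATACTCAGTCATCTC
Cd28-203: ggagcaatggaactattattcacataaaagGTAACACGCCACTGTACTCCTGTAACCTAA
For Kdr, on the minus strand, the shared bases are the end of exon 13 (chr5:75959117-75959146). They are followed by exon 14 in Kdr-201 (chr5:75957081-75957110) and by intron 13 in Kdr-203 (chr5:75959087-75959116).
Kdr-201: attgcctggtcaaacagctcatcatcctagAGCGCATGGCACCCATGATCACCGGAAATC
Kdr-203: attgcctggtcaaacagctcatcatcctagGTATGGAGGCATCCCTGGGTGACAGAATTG
For Vwf, on the plus strand, the shared bases of the first pair are the end of exon 10 (chr6:125591651-125591680). They are followed by exon 11 in Vwf-203 (chr6:125598482-125598511) and by intron 10 in Vwf-201 (chr6:125591681-125591710).
Vwf-203: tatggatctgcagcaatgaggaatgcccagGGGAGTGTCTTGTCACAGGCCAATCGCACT
Vwf-201: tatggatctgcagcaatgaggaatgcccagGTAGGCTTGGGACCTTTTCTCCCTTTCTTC
The shared bases of the second Vwf pair lie inside exon 37 (chr6:125657239-125657268). Exon 37 goes on in Vwf-203 (chr6:125657269-125657298), and Vwf-210 is joined to exon 38 at this point (chr6:125658716-125658745).
Vwf-203: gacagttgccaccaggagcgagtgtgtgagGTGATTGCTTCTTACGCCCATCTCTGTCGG
Vwf-210: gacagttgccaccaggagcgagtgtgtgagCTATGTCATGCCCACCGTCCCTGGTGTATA
For Cd22, on the minus strand, the shared bases are the end of exon 5 of Cd22-201 (chr7:30873135-30873164). They are followed by exon 6 in Cd22-201 (chr7:30872970-30872999) and by 19 more bases of the same exon in Cd22-214 (chr7:30873116-30873134).
Cd22-201: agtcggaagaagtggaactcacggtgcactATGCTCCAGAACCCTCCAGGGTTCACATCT
Cd22-214: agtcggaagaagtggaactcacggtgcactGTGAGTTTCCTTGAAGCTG
In the intron pairs of Cd28, Kdr and Vwf the first letters of the unspliced form are GT, as at most introns' starts. The 73 bases of exon 37 that Vwf-210 leaves out and the 19 bases that Cd22-214 adds also begin with GT. Neither number is a multiple of 3, and both leave a remainder of 1. Read in the frame of the full-length protein, a stop codon ends 68 bases into the intron in Cd28-203, 41 bases in Kdr-203 and 53 bases in Vwf-201. The stop codon ends 14 bases past the shared part in Cd22-214 and 447 bases past it in Vwf-210.

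Levels below come from the gene table that the authors made from alignments (alignment-based), and a transcript table that they made from the read files (read-based) is set beside it. Among the T cell genes, Cd28 (chromosome 1, 60716800 to 60773359) stood at 23.8 TPM in replicate 1 and 40.6 TPM in replicate 2, from 3493 and 4510 counts. Cd4 (chromosome 6, 124864692 to 124888221, minus strand) stood at 11.2 TPM in replicate 1 and 26.9 TPM in replicate 2, from 1052 and 1984 counts. Both were higher in replicate 2. Their means were 32.2 ± 11.9 TPM for Cd28 and 19.1 ± 11.1 TPM for Cd4 (SD, n = 2 each). Set against 22028 protein-coding genes, the percentile of Cd28 by TPM was 93.0 in replicate 1 and 95.5 in replicate 2. That of Cd4 was 85.2 in replicate 1 and 92.8 in replicate 2. Since these are bulk libraries, few cells with much of an RNA and many cells with little of it cannot be told apart.

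Of the endothelial genes, Vwf (chromosome 6, 125546774 to 125686679) stood at 14.3 TPM in replicate 1 and 11.9 TPM in replicate 2, from 2039 and 1087 counts. Kdr (chromosome 5, 75932827 to 75978458, minus strand) stood at 9.61 TPM in replicate 1 and 6.17 TPM in replicate 2, from 2025 and 956 counts. Both were lower in replicate 2, the opposite of the T cell genes. Vwf averaged 13.1 ± 1.71 TPM and Kdr 7.89 ± 2.43 TPM (SD, n = 2 each). Their percentiles in replicates 1 and 2 were 88.1 and 83.7 for Vwf and 83.4 and 74.5 for Kdr.

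The B cell lectin gene Cd22 (chromosome 7, 30865402 to 30880342, minus strand) was the lowest of the 5 genes in both libraries, at 3.65 TPM in replicate 1 and 4.85 TPM in replicate 2. Its mean was 4.25 ± 0.849 TPM (SD, n = 2) and its percentile 70.1 in replicate 1 and 71.4 in replicate 2. It had 458 counts in replicate 1 and 282 in replicate 2, so its TPM was higher in replicate 2 while its counts were fewer. The effective length that turns counts into TPM was 3230 bases for Cd22 in replicate 1 and 2094 bases in replicate 2. Of the 4.85 TPM in replicate 2, 1.34 TPM lay in Cd22-209, a transcript of 489 bases that held 10.1 counts. Cd22-209 held 0 counts in replicate 1 and 0 read-based counts in both libraries. It is named after its values were seen.

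The order of the genes by TPM was Cd28, Vwf, Cd4, Kdr and Cd22 in replicate 1, and Cd28, Cd4, Vwf, Kdr and Cd22 in replicate 2. Cd28 lay above Cd4 within each library, although the range of Cd28 over both libraries overlapped that of Cd4. Cd4 and Vwf changed places between the libraries. Vwf lay above Kdr in both libraries, and Kdr above Cd22, with no overlap of their ranges. The place of Vwf above Kdr holds for all transcripts summed. In protein_coding transcripts alone Kdr lay above Vwf, at 8.41 against 6.59 TPM in replicate 1 and 5.85 against 4.48 TPM in replicate 2. The deposited credibility bounds, whose level the headers do not state, describe the estimation error within 1 library. They were 13.0 to 16.2 TPM for Vwf and 9.92 to 15.2 TPM for Cd4 in replicate 1, and so overlapped. For Cd28 they were 22.3 to 23.9 TPM in replicate 1 and 38.0 to 40.3 TPM in replicate 2, above the bounds of Cd4 in each library, which in replicate 2 were 24.95 to 29.3 TPM. In replicate 2 they were 5.59 to 6.36 TPM for Kdr and 4.61 to 8.78 TPM for Cd22, and overlapped as well. By the deposited posterior mean TPM, a second estimate of the level, Cd22 lay above Kdr in replicate 2, at 6.57 against 5.97. In replicate 1 it lay below Kdr, at 5.27 against 9.35. The bounds did not always hold the deposited value. Cd22 in replicate 1 had bounds of 4.11 to 6.55 TPM above its value of 3.65, and the bounds of Cd28 in replicate 2 lay below its value of 40.6.

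The read-based transcript table, summed to genes, detected all 5 genes in both libraries, each at a lower TPM than in the gene table. Cd28 stood at 9.80 TPM in replicate 1 and 27.9 TPM in replicate 2 there, and Cd4 at 5.25 and 18.0 TPM. Vwf stood at 7.96 and 9.76 TPM, Kdr at 4.09 and 4.46 TPM and Cd22 at 2.82 and 4.13 TPM in replicates 1 and 2. The ranges of Kdr and Cd22 over both libraries overlapped there. All 5 genes were higher in replicate 2 in read-based TPM, Vwf and Kdr included, but so were 95.5% of 8890 protein-coding genes at 1 TPM or more in both libraries there. The median log2 ratio of those genes was 0.75, and with a pseudocount of 0.1 the ratio was above it for Cd28, at 1.5, and for Cd4, at 1.76. It was below that median for Vwf, at 0.29, for Kdr, at 0.12, and for Cd22, at 0.53. By alignment-based TPM, 73.4% of 9220 such genes were higher in replicate 2, with a median log2 ratio of 0.27.

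**Figure D1:**
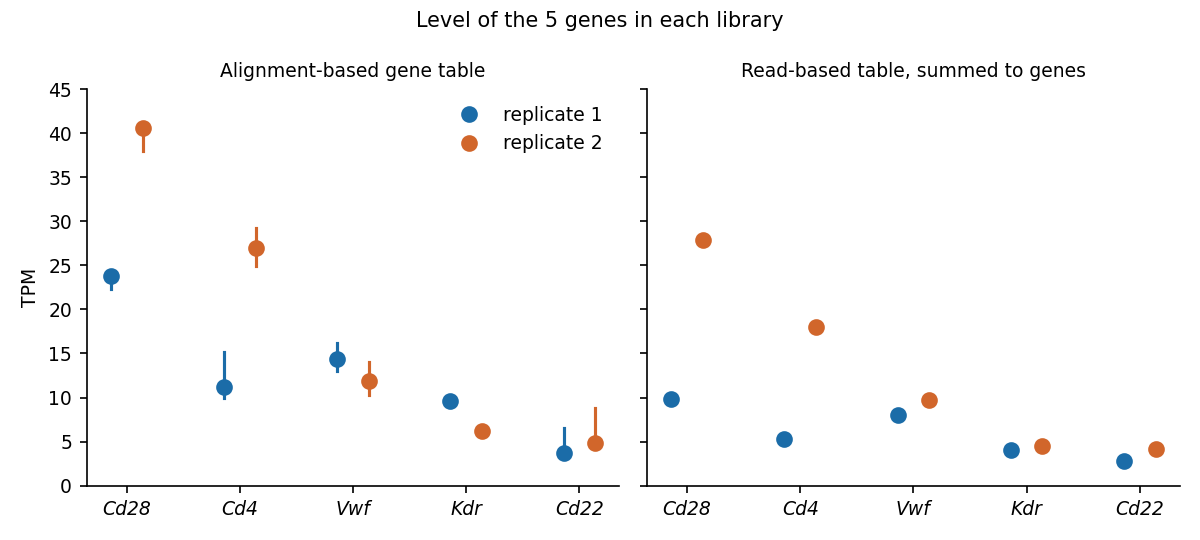
TPM (vertical axis) of the 5 genes in replicate 1 (blue) and replicate 2 (orange), in the alignment-based gene table (left; lines are the deposited credibility bounds) and the read-based table summed to genes (right). Cd28 and Cd4 are higher in replicate 2 in both panels, at 23.8 and 40.6 TPM and at 11.2 and 26.9 TPM on the left, while Vwf and Kdr are lower in replicate 2 on the left and higher on the right.

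By counts scaled for library size with TMM, the log2 ratio of replicate 2 over replicate 1 was 0.57 for Cd28 (95% counting interval 0.50 to 0.63) and 1.11 for Cd4 (1.00 to 1.22). It was -0.71 for Vwf (-0.82 to -0.60), -0.89 for Kdr (-0.998 to -0.774) and -0.50 for Cd22 (-0.72 to -0.29). The T cell genes thus had more scaled counts in replicate 2 and the other 3 had fewer. Cd4 alone passed 2-fold, with 44.3 scaled CPM in replicate 1 and 95.7 in replicate 2. Of the 9675 genes whose mean count was at least 100, 1.67% lay beyond 2-fold higher and 1.82% beyond 2-fold lower. These ratios compare 1 library with 1 library and have no replicate check, and the part that the unequal starting RNA or the mitochondrial share has in them was not tested. For Cd22 the ratio had the other sign in alignment-based TPM, at 0.40 with a pseudocount of 0.1, where Cd22-209 held 27.7% of the replicate 2 TPM. The ratio of Cd22 lay near 0 in read-based counts, at -0.063. In read-based TPM the ratios of Vwf, Kdr and Cd22 were all positive, as given above with the median over all genes.

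**Figure D2:**
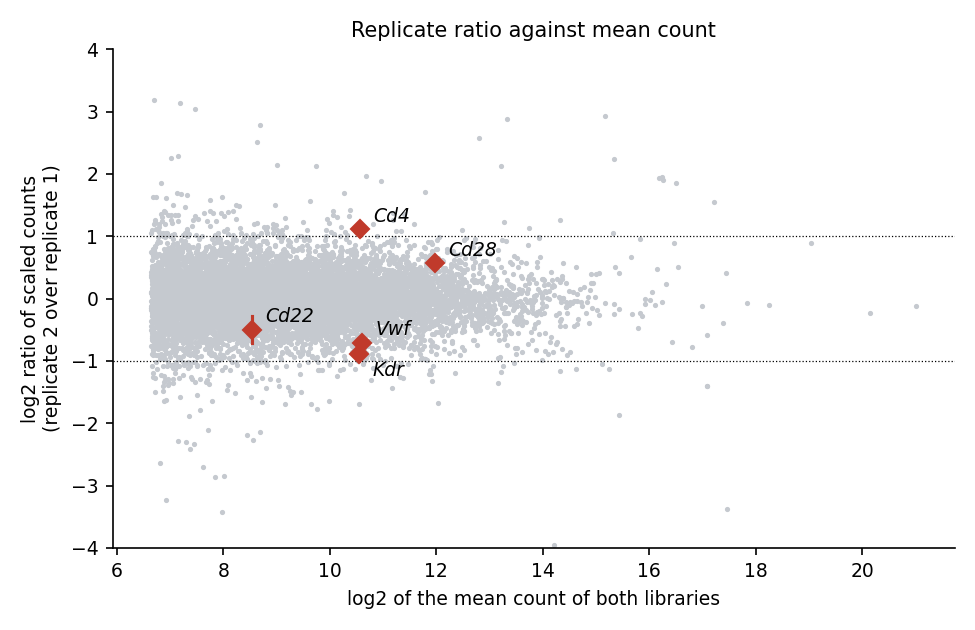
Log2 ratio of TMM-scaled counts, replicate 2 over replicate 1 (vertical axis), against the log2 of the mean count (horizontal axis) for 9675 genes (grey; 8 lie beyond the axis at 4 in either direction), with the 5 genes in red and their 95% counting intervals as lines. Dotted lines mark 2-fold, which Cd4 at 1.11 passes, while Kdr at -0.89 lies just inside the line on the other side.

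For 4 of the 5 genes the counts lay mainly in the full-length protein-coding transcript, in both libraries and both transcript tables. The share of the alignment-based counts in protein_coding transcripts was 94.8% in replicate 1 and 98.1% in replicate 2 for Cd28. It was 95.3% and 98.3% for Cd4, and 91.8% and 97.0% for Kdr. It was lower for Vwf, at 72.3% and 65.3%, and for Cd22, at 82.9% and 62.8%. Over the 10376 protein-coding genes that had at least 10 counts in each library and at least 2 transcripts, the median of this share was 89.1% in replicate 1 and 91.4% in replicate 2, with quartiles of 67.3% and 99.1% in replicate 1 and of 69.9% and 99.8% in replicate 2. Cd28, Cd4 and Kdr lay above the median in both libraries, and Vwf and Cd22 below it in both. These places are for the alignment-based counts alone. The coding share of Cd22 by read-based counts was higher, at 93.7% in replicate 1 and 98.3% in replicate 2. No read-based median over all genes is given here to set beside it. By alignment-based counts, the transcript with most counts was not protein_coding for 12.0% of the 10376 genes in replicate 1 and 12.0% in replicate 2. Among the 5 genes that was so for Cd22 in replicate 2.

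**Figure D3:**
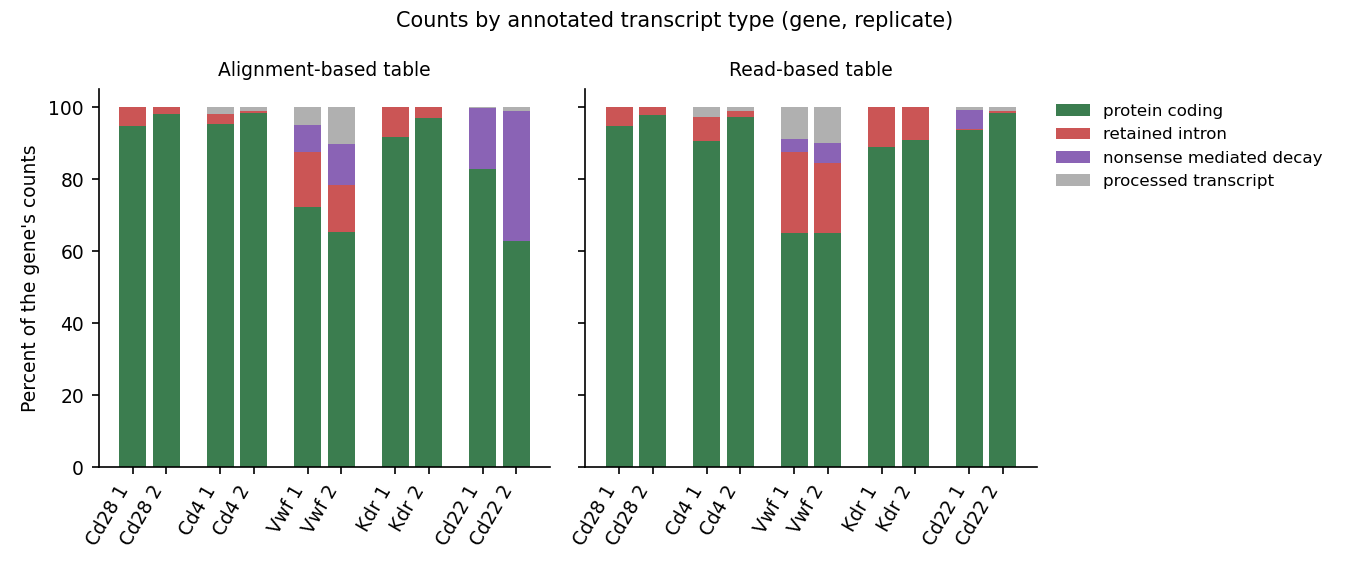
Percent of each gene's counts (vertical axis) by annotated transcript type for each gene and replicate, in the alignment-based (left) and read-based (right) tables. Cd28, Cd4 and Kdr are mostly protein coding in both panels, Vwf keeps a share of retained-intron counts in both, and the large share of nonsense-mediated decay in Cd22 in replicate 2, 36.0%, is seen on the left and is 0 on the right.

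Cd28 had its counts in Cd28-201, a transcript of 4 exons and 4347 bases of which 654 code for protein. It held 3311 counts in replicate 1 and 4422 in replicate 2. The retained-intron transcript Cd28-203 holds exons 1 and 2 and 1291 bases of intron 2, and it held 182 and 88.1 counts in replicates 1 and 2, which is 5.22% and 1.95% of the gene. It is named here after its values were seen. Cd28-202, a processed transcript whose first exons lie upstream and also named after its values were seen, held no count in either library or table. The coding transcript and the intron-holding transcript went opposite ways between the libraries, with log2 ratios of 0.62 for Cd28-201 and -0.85 for Cd28-203.

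Cd4 had its counts in Cd4-201, at 1002 counts in replicate 1 and 1949 in replicate 2. Its retained-intron transcripts Cd4-202 and Cd4-205 together held 28.3 and 13.6 counts, which is 2.69% and 0.686% of the gene. Both are named after their values were seen. The coding counts had a positive log2 ratio, 1.16, and the summed retained-intron counts a negative one, -0.84. These few counts fell in Cd4-205 only, from 19.3 in replicate 1 to 2.83 in replicate 2, while Cd4-202 held 9.08 and 10.8. In read-based counts both were lower in replicate 2, at 40.8 and 13.6 for Cd4-205 and 41.6 and 29.0 for Cd4-202. The nearest annotated gene is Gpr162, an orphan receptor gene 709 bases past the 3′ end of Cd4 on the same strand. Gpr162 stood above Cd4 in both libraries, at 52.1 and 37.7 TPM from 5507 and 2790 counts, and was lower in replicate 2 where Cd4 was higher. Upstream, Lag3, whose protein also binds MHC class II, stood at 1.99 and 1.37 TPM.

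Kdr had its counts in Kdr-201, a transcript of 30 exons, at 1858 counts in replicate 1 and 927 in replicate 2. In the read-based table Kdr-201 held 88.9% and 91.0% of the gene's counts. Kdr-203 holds exons 1 to 13 and 1752 bases of intron 13, and held 131 counts in replicate 1 and 12.8 in replicate 2. Background knowledge in mouse gives retention of intron 13 as the source of a short secreted form of the receptor, and whether such a protein was made is not measured here. Kdr-203 had a log2 ratio of -3.11 against -0.81 for Kdr-201, and its read-based counts of 157 and 25.4 were likewise far fewer in replicate 2. Kdr-202, which holds the whole of intron 10 and part of intron 11, held 35.4 and 16.3 counts, while its read-based counts of 113 and 103 were more and were close between the libraries. Both Kdr-202 and Kdr-203 are named after their values were seen.

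The counts of Vwf lay in more transcripts than those of Cd28, Cd4 or Kdr, and 10 of its 11 transcripts held some. The full-length Vwf-203, with 52 exons and 8834 bases, held 1303 counts in replicate 1 and 625 in replicate 2, which is 63.9% and 57.5% of the gene. Per unit of length its share was smaller, 27.2% and 21.9% of the gene's TPM, since the other transcripts are shorter. Vwf-201 begins 6174 bases upstream of Vwf-203 and ends in intron 10 with 1260 coding bases, and it held 137 and 74.6 counts. Vwf-210, annotated as a target of nonsense-mediated decay, begins in exon 34 and shortens exon 37, and it held 151 and 123 counts. In the read-based table Vwf-203 held 52.5% of the gene's counts in each library, Vwf-201 held 11.0% and 11.6%, and Vwf-210 held 3.69% and 5.63%.

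The counts outside Vwf-203 came from all along the gene. Retained-intron transcripts of Vwf held 313 counts in replicate 1 and 142 in replicate 2, 15.4% and 13.1% of the gene, and 22.4% and 19.5% in the read-based table. The one with most alignment-based counts was Vwf-208, which reads 3052 bases into intron 38 and held 178 and 96.2 counts. In read-based counts Vwf-211, which ends in intron 15, held more in replicate 1, with 265 against 211 for Vwf-208, and fewer in replicate 2, with 62.9 against 136. Both are named after their values were seen. Coding and retained-intron counts of Vwf were both lower in replicate 2, with log2 ratios of -0.86 and -0.94. The ratio was -0.09 for its nonsense-mediated decay transcript and 0.34 for its processed transcripts, which held 101 counts in replicate 1 and 112 in replicate 2, so the types did not all go the same way. The nearest annotated gene with counts at lower coordinates than Vwf was Gm26728, 37639 bases away with 1 count and 0 counts. At higher coordinates it was Ndufa9, 1135042 bases away at 3.93 and 4.34 TPM. Genes beyond these were not looked at.

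**Figure D4:**
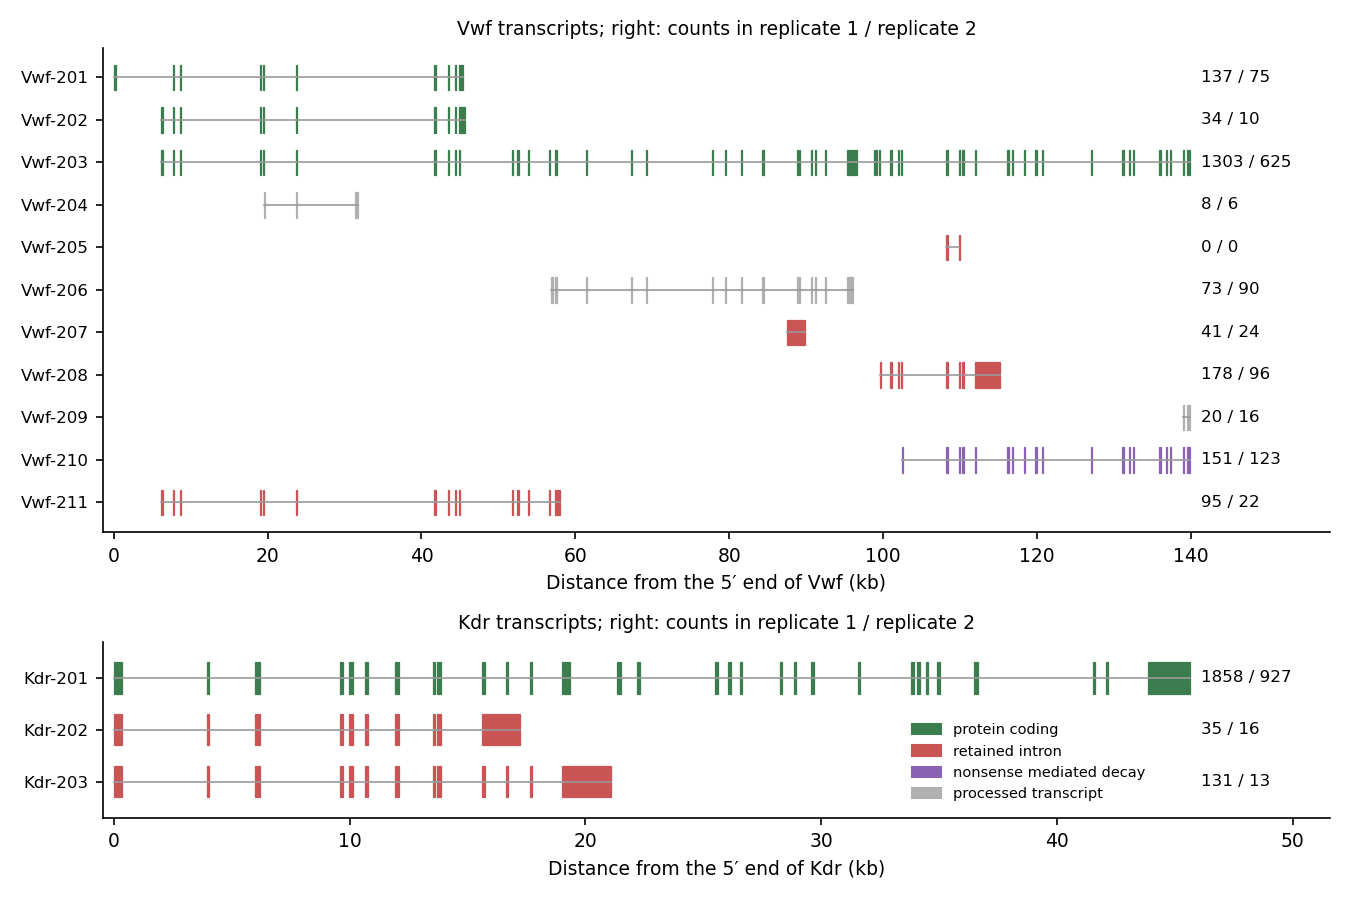
Exons (boxes) of the 11 Vwf and 3 Kdr transcripts by distance from the 5′ end of the gene in kb (horizontal axis, transcribed direction to the right), coloured by annotated type, with the alignment-based counts of replicate 1 / replicate 2 rounded to whole numbers at the right. Vwf-203 spans the gene with 1303 and 625 counts while shorter transcripts cover its start, middle and end, and Kdr-203 stops in the intron after exon 13 with 131 and 13 counts.

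Retained-intron counts were lower in replicate 2 in the 4 genes that had any, Cd28, Cd4, Vwf and Kdr. This was so for 69.6% of 5248 protein-coding genes with a mean of 10 or more such counts, whose median log2 ratio was -0.29, with quartiles of -0.76 and 0.09. Relative to the gene's total the retained-intron share of the median gene was 4.03% in replicate 1 and 2.43% in replicate 2. Vwf and Kdr lay above that in both libraries, Cd4 below it in both, and Cd28 above it in replicate 1 and below it in replicate 2. Cd22 had no retained-intron counts in the alignment-based table.

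For Cd22 the tables did not give the same leading transcript. In the alignment-based table Cd22-202 led in replicate 1 with 232 counts and held 0 in replicate 2, where Cd22-214 led with 102 counts. In the read-based table Cd22-210 led in replicate 1 with 343 counts and Cd22-201 in replicate 2 with 314. The leading transcript differed between the tables for 17.4% of the 10376 genes in replicate 1 and 17.1% in replicate 2, and among the 5 genes for Cd22 alone. Cd22-203 also held over 10% of the gene in replicate 1, with 75.3 counts there and 19.2 in replicate 2.

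Cd22-201, Cd22-202, Cd22-203, Cd22-210 and Cd22-213 share 1 coding sequence and differ in their first exons and ends; Cd22-213 is named for that reason, with 4.47 counts in replicate 1 and 0 in replicate 2. Together they held 82.9% of alignment-based counts in replicate 1 and 56.6% in replicate 2, and 88.7% and 93.6% of read-based counts. Most of the rest in the alignment-based table was Cd22-214, annotated as a target of nonsense-mediated decay, with 77.3 and 102 counts. The read-based table gave Cd22-214 only 15.5 counts in replicate 1 and 0 in replicate 2, so the lower coding share of Cd22 in replicate 2 stands in 1 table only. Cd22 is also the only one of the 5 genes that another gene overlaps. The antisense gene Gm29439 lies across it and held 0 counts in both libraries. Its nearest neighbours Ffar1 and D7Ertd128e held 1 to 4 counts in each library.

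Of the other genes known from the same cell types, few reached 1 TPM in both libraries, though most had counts. Genes with no count in either library were 7 of 24 for T cells, 1 of 16 for B cells and 7 of 20 for endothelium. The 5 genes were chosen by their levels, so their standing above most of these genes is not a finding. T cell markers and T cell receptor signalling genes reached 1 TPM in both libraries for 2 of 24, Il7r (the interleukin 7 receptor) at 4.80 and 6.64 TPM and Cd27 (a receptor of the TNF receptor family) at 2.02 and 1.71 TPM. Next came Cd5 at 0.24 and 0.81 TPM. Cd3e, a chain of the T cell receptor complex, and Cd8a were at 0 in both libraries, 2 of the 7 listed genes with no count in either. Lck, the kinase that CD4 carries, stood at 0.17 TPM in replicate 1 and 0 in replicate 2. The summed level of the 24 genes was 8.13 TPM in replicate 1 and 10.6 TPM in replicate 2. By read-based TPM, 4 of the 24 reached 1 in both, the others being Cd3d, another chain of the T cell receptor complex, at 1.21 and 3.99 TPM and Thy1, a T cell surface protein, at 1.72 and 3.43 TPM. In the gene table Cd3d stood at 0.02 and 0.03 TPM and Thy1 at 0.02 and 0.07 TPM. Read-based TPM was 0.02 and 0.01 for Cd3e, 0.22 and 0.63 for Cd8a and 0.30 and 0.21 for Lck. Of all 22028 protein-coding genes, 41.9% reached 1 TPM in both libraries.

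B cell markers reached 1 TPM in both libraries for 2 of 16. These were Cd72, a lectin-like receptor, at 62.3 and 42.1 TPM and Blnk, an adaptor of receptor signalling, at 24.3 and 24.2 TPM, and they made up most of the summed 87.9 and 69.1 TPM. Cd79b followed at 0.46 and 0.88 TPM. Among the defining markers, Ms4a1 stood at 0.05 and 0.07 TPM and Cd79a at 0.04 and 0.15 TPM. Cd22 lay above 14 of the 16 in both libraries. By read-based TPM 4 of the 16 reached 1 in both, the others being Fcer2a at 2.55 and 2.70 TPM and Cr2 at 1.04 and 1.39 TPM, while Ms4a1 stood at 0.20 and 0.15 TPM and Cd79a at 0.04 and 0.14 TPM.

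Endothelial markers reached 1 TPM in both libraries for 1 of 20, Eng, a co-receptor of the TGF-beta family, at 11.7 and 11.3 TPM. Pecam1 stood at 0.90 and 1.21 TPM, Cdh5 (VE-cadherin) at 0.12 and 0.43 TPM and Tek at 0 in both, and 7 of the 20 had no count in either library. Flt4 stood at 0.29 TPM in each. The summed level of the 20 was 13.4 and 13.7 TPM. By read-based TPM Pecam1 was higher, at 1.81 and 6.29 TPM, and lay above Kdr in replicate 2, while Cdh5 stood at 0.25 and 0.18 TPM. Megakaryocyte and platelet markers, the other known source of VWF, reached 1 TPM in both for 2 of 10, Pf4 at 15.4 and 26.9 TPM and Clec1b at 1.38 and 1.07 TPM. Treml1 stood at 1.03 and 0.96 TPM, Itga2b at 0.56 and 0.28 TPM and Gp9 at 0.40 and 0.22 TPM, and the 10 summed to 19.1 and 29.7 TPM.

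Some dendritic cells also carry CD4, and of 11 plasmacytoid and conventional dendritic cell markers 3 reached 1 TPM in both libraries. These were Bst2 (an interferon-induced tetherin) at 178 and 126 TPM, Tcf4 at 27.2 and 29.3 TPM and Ccr9 at 1.26 and 1.90 TPM, of a sum of 209 and 161 TPM. Siglech stood at 0.20 and 0.31 TPM and Flt3 at 0.05 and 0.13 TPM. In replicate 2, where Cd4 and Cd28 were higher, the T cell list was 10.6 TPM in sum and 8.13 TPM in replicate 1. Il7r and Cd27 made up most of both sums, and the genes of the list did not all go the same way. Il7r (4.80 and 6.64 TPM) and Cd5 (0.24 and 0.81 TPM) were higher in replicate 2. Cd27 (2.02 and 1.71 TPM) and Lck (0.17 and 0 TPM) were lower there. Trac stood at 0.04 and 0.05 TPM from 1 count in each library, and Cd3e was at 0 in both. By read-based TPM Cd3d, at 1.21 and 3.99, and Thy1, at 1.72 and 3.43, were higher in replicate 2, as most genes were. The part of T cells, dendritic cells or other such cells in the levels of the 5 genes was not tested.

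Genes whose proteins bind to or signal with these receptors were present to an unequal degree. Of 8 CD4 partners 7 reached 1 TPM in both libraries, led by Ptprc (CD45) at 241 and 293 TPM, Cd74 (the invariant chain) at 118 and 228 TPM and H2-Ab1 (a class II chain) at 35.9 and 66.0 TPM, and Lck was the exception. Of 10 CD28 ligands and relatives 6 did, led by Vav1 at 52.8 and 64.7 TPM, Grb2 at 38.7 and 50.1 TPM and Pik3r1 at 33.9 and 37.9 TPM. All 3 act in signalling downstream of CD28 among many other receptors. The ligand genes Cd80 and Cd86, named after their values were seen, stood at 5.77 and 9.10 TPM and at 21.6 and 29.4 TPM.

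Of 12 genes of the Siglec family and of CD22 signalling 8 reached 1 TPM in both, led by Syk at 122 and 139 TPM, Lyn at 79.4 and 92.4 TPM and Siglec1 at 103 and 67.0 TPM. LYN phosphorylates the tail of CD22, and SIGLEC1 is the sialoadhesin of macrophages. Of 9 VEGF ligands and receptors 4 did, namely the co-receptor genes Nrp2 at 126 and 196 TPM and Nrp1 at 77.6 and 71.4 TPM, and the ligand genes Vegfa at 40.2 and 56.5 TPM and Vegfb at 2.94 and 4.31 TPM. The other VEGF receptor genes, Flt1 at 0.21 and 0.25 TPM and Flt4, lay below Kdr in both libraries. Of 9 VWF partners only Thbs1 (thrombospondin 1) reached 1 TPM in both, at 82.2 and 98.9 TPM. F8, the gene of the factor that VWF carries, stood at 0.32 and 0.64 TPM, and Itgb3, an integrin chain that binds VWF on platelets, at 0.36 and 0.41 TPM. The nearest neighbours with counts of Kdr were low as well, Kit at 0.40 and 0.42 TPM and Gm6051 at 0.20 and 0 TPM. The neighbours of Cd28 were Eif4a-ps4 at 0.71 and 4.14 TPM and Gm11579 at 0.75 and 0.57 TPM.

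**Figure D5:**
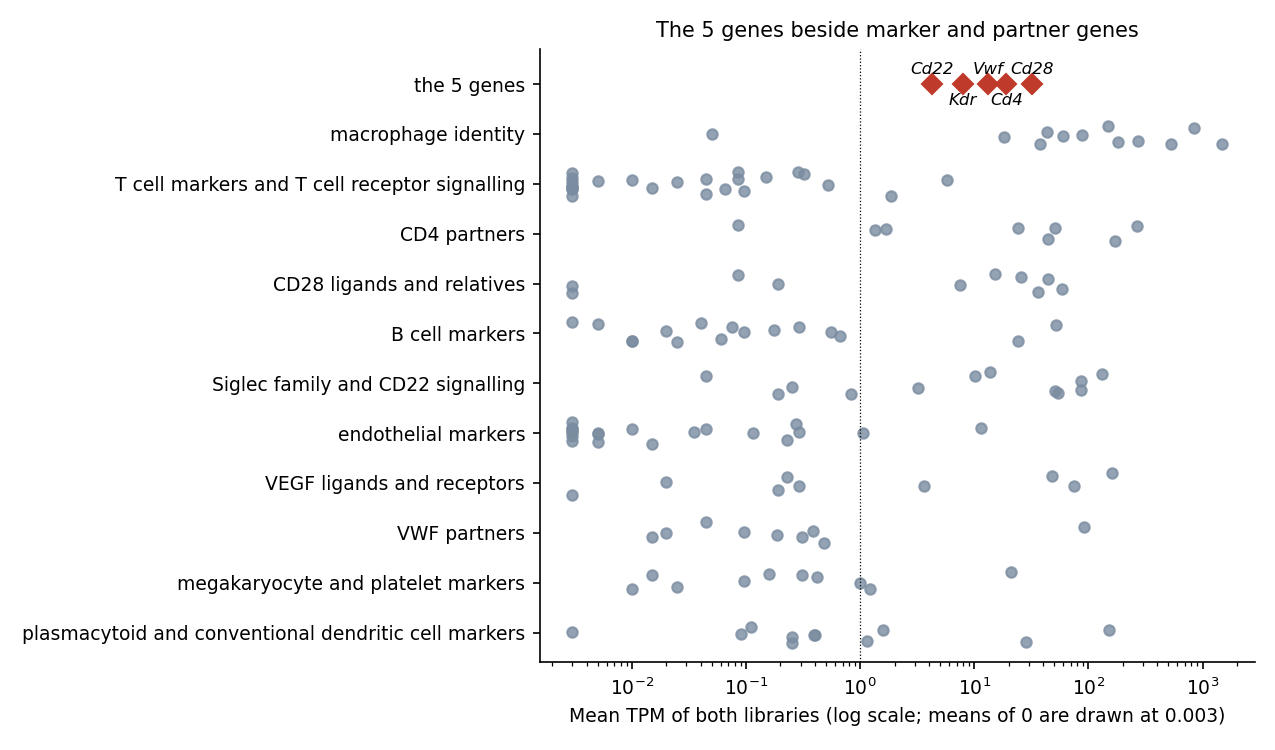
Mean TPM over both libraries (horizontal axis, log scale; means of 0 drawn at 0.003) of the 5 genes (red) and of the genes in each marker or partner list (grey; 1 point a gene). The dotted line marks 1 TPM, and most T cell, B cell and endothelial markers lie to its left. The 5 genes, at 4.25 to 32.2 TPM, lie to its right, which follows from their choice by level.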

How the data were processed

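Total RNA-seq of nucleoplasmic RNA was used from 2 libraries. Per the file headers, all tables are on mm10 with GENCODE M21; the alignment-based gene and transcript tables came from alignments to the transcriptome and the read-based transcript table from the read files. Names and versions of the aligner and quantifier, and the strand setting, were not given in the sources used here. Those tables deposited by the authors hold expected counts (estimated counts that share ambiguous reads and need not be whole), TPM, FPKM, the percent of each gene's TPM per transcript, and credibility bounds of TPM.

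Expected counts of genes were rounded and scaled by TMM factors (0.997 and 1.00) of edgeR 4.0.16, without fitting a model. Ratios are log2, replicate 2 over replicate 1, with a prior count of 0.5 and exact Clopper-Pearson intervals at 95%, which cover counting error only. With 1 group there is no test and no p-value. The 5 genes, the 11 gene lists and the alternatives were chosen with earlier results of these data known. Named transcripts hold 10% or more of the gene's counts in either library and table, and others are marked where they are named. Named list genes are the 3 highest by mean TPM and the defining markers (1 B cell marker is not reported here), to which Cd80, Cd86, Flt1, F8, Itgb3, Cd3d, Thy1, Trac, Cr2, Fcer2a and genes that alone reached or missed 1 TPM were added after their values were seen. A chi-square test over 14345 genes came to 113 per gene, so the libraries are not 1 library listed again. The ratio was tested on simulated data. Alternatives were library size, DESeq2 1.42.0 size factors, other thresholds and pseudocounts, FPKM, read-based values and single libraries. Software was R 4.3.3 and Python 3.11.15 with scipy 1.17.1, numpy 2.4.6, matplotlib 3.10.9 and pandas 2.3.3.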

Additional observations from a re-analysis of the deposited data

How the results depend on the processing

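No paired analysis was possible because there is 1 group. With 2 libraries no value has a replicate check beyond their spread, and how reads are divided among transcripts limits Cd22 most. The direction of the replicate ratio changed for Cd22 in alignment-based TPM, to 0.40 with a pseudocount of 0.1 and 0.33 with 1. In read-based TPM with a pseudocount of 0.1, chosen after seeing the data, it changed to 0.29 for Vwf, 0.12 for Kdr and 0.53 for Cd22, and was 1.5 for Cd28 and 1.76 for Cd4. The median of all genes was 0.75 there and 0.27 in alignment-based TPM. The cause was not tested. Other ratios in TPM with a pseudocount of 0.1 were 0.77 for Cd28, 1.26 for Cd4, -0.27 for Vwf and -0.63 for Kdr, and with 1 they were 0.75 for Cd28, -0.25 for Vwf and -0.57 for Kdr. Read-based counts gave 0.64 for Cd28 and -0.063 for Cd22. The ratio of Cd4 stayed above 1 under all alternatives run. The level became 18.9 TPM for Cd28, 8.86 for Vwf and 4.27 for Kdr in the read-based table, 46.3 FPKM for Cd28, 19.5 for Vwf, 11.9 for Kdr and 6.19 for Cd22, and 5.92 TPM for Cd22 by posterior mean. The percentile of Cd28 became 92.1 in the read-based table. By CPM it was 96.3 for Cd28, 89.4 for Vwf, 88.7 for Kdr and 74.1 for Cd22, and among genes above 0 TPM it was 90.9 for Cd28, 82.7 for Cd4, 77.7 for Vwf, 66.6 for Kdr and 53.7 for Cd22. By TPM the coding and the leading transcript share were 91.1% for Cd28 and 85.2% for Cd4, and for Vwf they were 41.8% and 24.6%. In the read-based table both were 94.0% for Cd4 and 90.0% for Kdr, the leading share of Vwf was 52.5% and the coding share of Cd22 was 96.0%. Leading share here is that of the transcript with most counts over both libraries, which is Cd22-202 for Cd22. List counts at 5 TPM were 0 for T cell and 1 for megakaryocyte markers, and at 0.5 TPM 2 for endothelial markers. The read-based table gave 4 for T cell, 4 for B cell, 2 for endothelial and 1 for megakaryocyte markers. Leaving out either library gave 1 to 2 endothelial markers.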
